A study of Arabidopsis thaliana with 6 samples.

Results

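Sugar leaves and enters plant cells through carriers of a few families, and 10 genes of 2 of them, 7 SWEET and 3 SUC genes, were followed here in Arabidopsis thaliana. The members were taken by name and locus (SWEET1, SWEET2, SWEET4, SWEET11, SWEET12, SWEET16, SWEET17, SUC1, SUC2 and SUC4) out of 27416 genes in the deposited tables. Plants of the Columbia ecotype were grown on MS medium, without a further treatment, to an age of 21 days. RNA came from vegetative tissue, with 3 wild-type libraries and 3 libraries labelled as the ucp1 ucp3 double mutant, each described as a biological replicate. The mutant alleles, the origin of the lines and the number of plants per sample are not given in the sources used here. UCP1 and UCP3 encode carriers of the inner mitochondrial membrane, and the comparison asks which transcripts differ when both genes carry mutations. Because nothing states how replicates of a group were separated, p-values measure the spread between these samples, which may be partly technical.

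SWEET proteins are facilitators that let sugar pass a membrane down its gradient, whereas SUC proteins are symporters that move sucrose together with protons. In leaf veins, SWEET11 and SWEET12 of the phloem parenchyma release sucrose into the cell wall space, and SUC2 takes it up into the companion cells, which is the loading step of long-distance transport. Other members work at the vacuole membrane, where SWEET2, SWEET16, SWEET17 and SUC4 move sugar in or out of storage.

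The libraries held 1183612 to 11296137 reads assigned to genes, a 9.54-fold range. The shallowest, replicate 3 of the labelled mutants, also stood apart on the first principal component of log2 levels (47.0% of the variance), at 59.3. Replicates 1 and 2 of the labelled mutants lay at 9.42 and -1.26, and the wild-type libraries at -28.8 to -17.7. The groups thus did not overlap on this component. Transcripts of both targeted genes were found in all libraries. UCP1 had 69.2, 67.3 and 75.3 CPM (reads scaled to a common library size) in the wild-type libraries, against 67.2, 46.6 and 53.3 CPM in those labelled ucp1 ucp3. UCP3 had 12.3, 16.1 and 13.0 CPM against 8.68, 10.2 and 10.8 CPM. Every labelled mutant lay under every wild-type library for both genes, for UCP1 by a narrow margin, as it did for 12.4% of all tested genes. The log2 fold changes of -0.35 and -0.49 had unadjusted p-values of 0.0252 and 0.0249 and did not pass over all genes (edgeR adjusted p = 0.226 and 0.224). The direction is thus that of the labels, but the levels are not those of absent transcripts and do not settle the genotype. Each direction below therefore rests on the labels, and the second group is referred to by its label throughout, in short as the labelled mutants.

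Reads of the members could be told apart from those of other genes over nearly all of their length. Each of the 10 genes had a single transcript model in the tables. In the RefSeq mRNAs of TAIR10.1, SWEET11 (AT3G48740, on chromosome 3) and SWEET12 (AT5G23660, on chromosome 5) shared no stretch of 31 bases, although 82.6% of their 852 aligned coding bases were identical. SUC1 (AT1G71880, on chromosome 1) shared 0.872% of its 31-base stretches, chiefly with SUC5 (AT1G71890, on chromosome 1), SUC2 (AT1G22710) shared 0.198%, also chiefly with SUC5, and SWEET1 (AT1G21460) had 1.72% on the opposite strand of another gene. The 2 pairs of sequences below are shown because they compare the members most alike with each other, SWEET11 and SWEET12, and the member most alike to another gene of its family, SUC1 to SUC5 (84.3% of aligned coding bases). They hold the longest identical coding run of SWEET11 with SWEET12, 29 bases, and of SUC1 with SUC5, 41 bases, each with 24 bases on either side. Capitals mark the bases that differ within a pair, 6 of 77 in the first and 8 of 89 in the second.
SWEET11: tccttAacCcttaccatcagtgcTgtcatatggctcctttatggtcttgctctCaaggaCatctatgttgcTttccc
SWEET12: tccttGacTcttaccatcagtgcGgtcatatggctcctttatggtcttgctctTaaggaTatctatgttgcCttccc
SUC1: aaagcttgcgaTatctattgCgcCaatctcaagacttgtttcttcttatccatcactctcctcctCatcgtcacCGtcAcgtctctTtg
SUC5: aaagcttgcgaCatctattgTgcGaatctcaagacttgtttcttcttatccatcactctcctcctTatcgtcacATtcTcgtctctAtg

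Among the members SWEET1 alone was called, at an edgeR adjusted p of 0.0474. The call was lost in 8 of the 12 alternatives that gave it an adjusted p. SWEET1, which encodes a glucose facilitator of the plasma membrane, was lower in the labelled mutants, at 48.8% of the wild-type level (95% interval 34.4% to 69.3%, n = 3 per group). SWEET11 and SUC1 had estimates below 0 and SUC2 an estimate above 0 that did not pass. The intervals of SUC1, SUC2, SWEET12 and the vacuolar members spanned 0, and that of SWEET11 did not. Of the 10 members, 9 were tested (SWEET4 had too few reads), 1 was called lower and 0 higher at an adjusted p under 0.05 in edgeR's quasi-likelihood test over all genes. Over all 17415 tested genes the same test called 0.482% lower and 0.781% higher. DESeq2 and limma-voom called 0 members in either direction. DESeq2 gave SWEET1 no adjusted p, with a log2 fold change of -1.10 and an unadjusted p of 0.00054, against -1.04 and 0.00057 in edgeR. In edgeR 2 members, SWEET1 and SWEET11, had an unadjusted p under 0.05, both with estimates below 0 (16.4% of all tested genes had such a p). The members' median log2 fold change was -0.11, with 7 estimates below 0 and 2 above, against a median of -0.00237 over all tested genes.

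**Figure D1:**
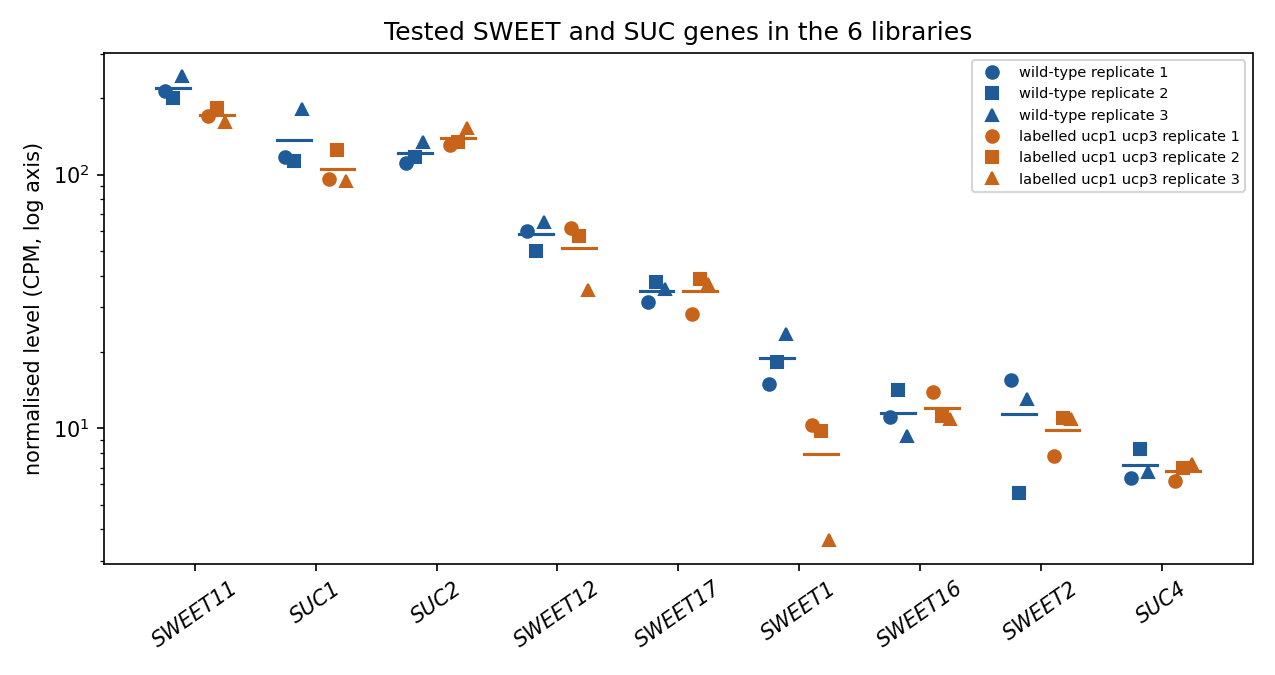
Normalised level (CPM, log axis) of the 9 tested members in the 6 libraries, ordered by mean TPM in wild-type. Points are libraries, lines are group means; the groups are apart for SWEET1 and SWEET11.

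SWEET1 had 14.9, 18.3 and 23.5 CPM in wild-type replicates 1 to 3, against 10.3, 9.76 and 3.61 CPM in those labelled ucp1 ucp3. All 3 labelled mutants lay under the lowest wild-type library, and replicate 3 of the mutants was the lowest of the 6. The means were 18.9 ± 4.30 and 7.88 ± 3.71 CPM (SD, n = 3), and the log2 fold change was -1.04 ± 0.24 (SE; 95% interval -1.54 to -0.53; edgeR adjusted p = 0.0474). The values rest on 4 to 111 reads per library, and 4 reads in replicate 3 of the labelled mutants stand just above the detection floor of 3 reads, which is 2.71 CPM there. The call did not outlast the loss of any single library: the estimate lay between -1.19 and -0.84 and the adjusted p between 0.0673 and 0.1385, the latter without wild-type replicate 3. Without replicate 3 of the labelled mutants the log2 fold change was -0.91 (edgeR adjusted p = 0.1104). In these bulk samples, fewer cells of a type and less RNA per cell cannot be told apart.

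**Figure D2:**
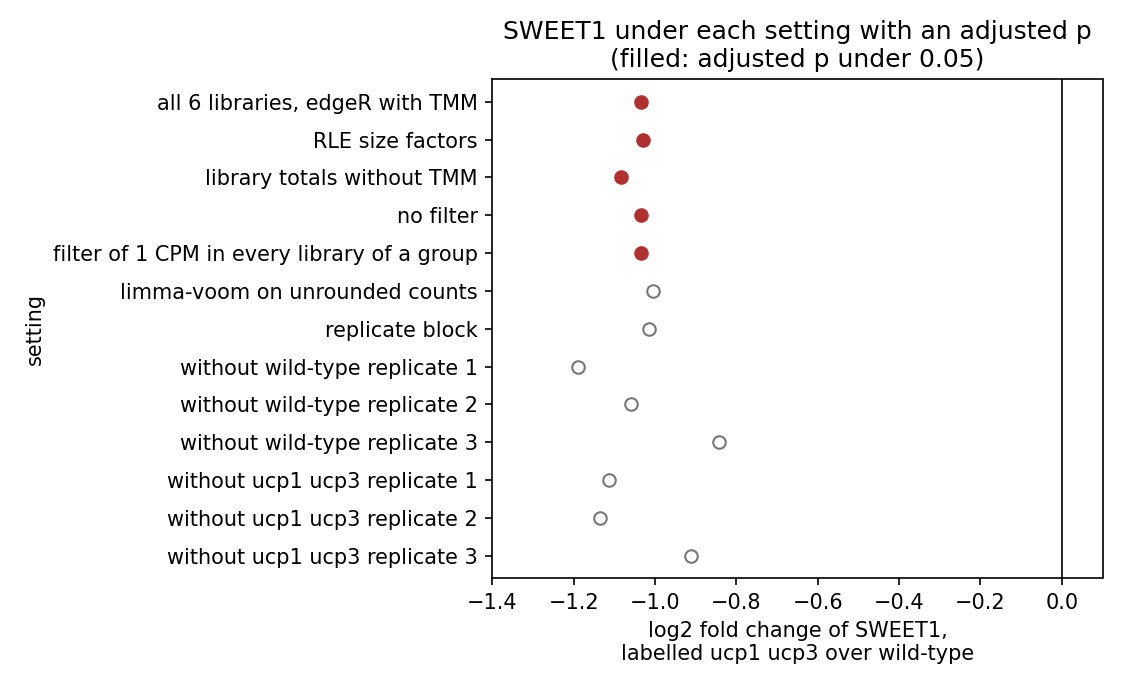
Log2 fold change of SWEET1 (x axis, labelled ucp1 ucp3 over wild-type) under each setting that gave an adjusted p (y axis). Filled points passed an adjusted p under 0.05; the estimates run from -1.19 to -0.84, and none of the 6 fits that leave out a library is filled.

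Ratios of reads taken within a library do not depend on how libraries are scaled. Among the 36 pairs that 9 members form, the ratio did not overlap between the groups in 9 pairs. SWEET1 was part of 7 of these, being lower relative to every tested member except SWEET2. These ratios reuse the counts of SWEET1 given above and are no separate evidence of its lower level. The remaining 2 pairs were SUC2 with SWEET11 and SUC2 with SUC1. The levels of single genes were apart between the groups for 23.6% of the genes tested, and the share for ratios over all genes was not computed.

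SWEET11, the more abundant of the sister genes for sucrose release, had 214, 201 and 245 CPM in the wild-type libraries, against 170, 184 and 161 CPM in those labelled ucp1 ucp3. The groups did not overlap, as was the case on the lower side for 12.4% of all tested genes and for 2 of the 9 tested members, SWEET1 and SWEET11. The log2 fold change of -0.35 (95% interval -0.59 to -0.10) had an unadjusted p of 0.00827 in edgeR and did not pass over all genes (edgeR adjusted p = 0.14). Its level in the labelled mutants was placed between 66.4% and 93.0% of wild-type. No alternative called it, with adjusted p-values from 0.0958 to 0.384.

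SWEET12 had 60.2, 50.1 and 64.8 CPM in the wild-type libraries, against 61.5, 57.1 and 35.2 CPM in those labelled ucp1 ucp3. Replicates 1 and 2 of the mutants lay inside the wild-type range, and replicate 3, with 39 reads, lay under it. The log2 fold change was -0.11 (95% interval -0.46 to 0.23; edgeR adjusted p = 0.797), and it was 0.02 without that library. The ratio of SWEET11 to SWEET12 reads was 3.55, 4.01 and 3.77 in wild-type and 2.77, 3.22 and 4.56 in the labelled mutants, so the groups overlapped (exact two-sided permutation test, p = 0.6).

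SWEET4, a plasma membrane facilitator for hexoses known from the vasculature, was at the limit of detection. It had 0, 0 and 3 reads in wild-type and 1, 7 and 1 in the labelled mutants, and 5 of 6 libraries were at or under 3 reads. With so few reads it was left out of the main test, and at this depth a difference could be missed.

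None of the vacuolar facilitators passed the test. SWEET17, a fructose carrier of the vacuole membrane, had 31.5, 37.7 and 35.6 CPM in the wild-type libraries, against 28.1, 38.9 and 37.0 CPM in those labelled ucp1 ucp3. Its 95% interval for the log2 fold change, -0.33 to 0.31, leaves room for a level of 79.7% to 124% of wild-type (edgeR adjusted p = 0.995). Its close relative SWEET16, with 78.4% identical aligned coding bases, had 11.1, 14.1 and 9.30 CPM in the wild-type libraries, against 13.9, 11.2 and 10.8 CPM in those labelled ucp1 ucp3. All 3 mutant values of SWEET16 lay inside the wild-type range, and the interval ran from -0.36 to 0.53 (edgeR adjusted p = 0.901).

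SWEET2, a glucose carrier of the vacuole membrane known from roots, had the largest standard error of the tested members. Its wild-type libraries had 15.6, 5.54 and 13.0 CPM and the labelled mutants 7.77, 11.0 and 10.8 CPM. Wild-type replicate 2 was the lowest of the 6, and the mutants lay between it and the other two. The log2 fold change was -0.24 ± 0.31 (SE; 95% interval -0.91 to 0.43; edgeR adjusted p = 0.77). It lay at -0.54 without wild-type replicate 2 and at 0.06 without wild-type replicate 1.

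SUC4, the sucrose symporter of the vacuole membrane, was low and even. It had 6.35, 8.31 and 6.74 CPM in the wild-type libraries, against 6.17, 6.94 and 7.22 CPM in those labelled ucp1 ucp3, from 8 to 79 reads per library. The interval of its log2 fold change was -0.58 to 0.43 (edgeR adjusted p = 0.938).

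SUC2, the companion cell symporter of phloem loading, had 112, 118 and 134 CPM in the wild-type libraries, against 131, 134 and 153 CPM in those labelled ucp1 ucp3. The mutants occupied the upper part of the joint range, and wild-type replicate 3 overlapped with them. The log2 fold change was 0.19 (95% interval -0.06 to 0.44; edgeR adjusted p = 0.452), which spans a level of 96.1% to 135% of wild-type. Every alternative gave an estimate above 0, from 0.12 to 0.27, and none called it.

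SUC1, a plasma membrane symporter known from roots, trichomes and pollen, had 117, 113 and 182 CPM in the wild-type libraries, against 96.2, 125 and 94.8 CPM in those labelled ucp1 ucp3. Wild-type replicate 3 was the highest of all, and mutant replicate 2 lay within the wild-type range. The log2 fold change of -0.36 (95% interval -0.78 to 0.06; edgeR adjusted p = 0.391) depended on that wild-type library, being -0.10 without it.

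**Figure D3:**
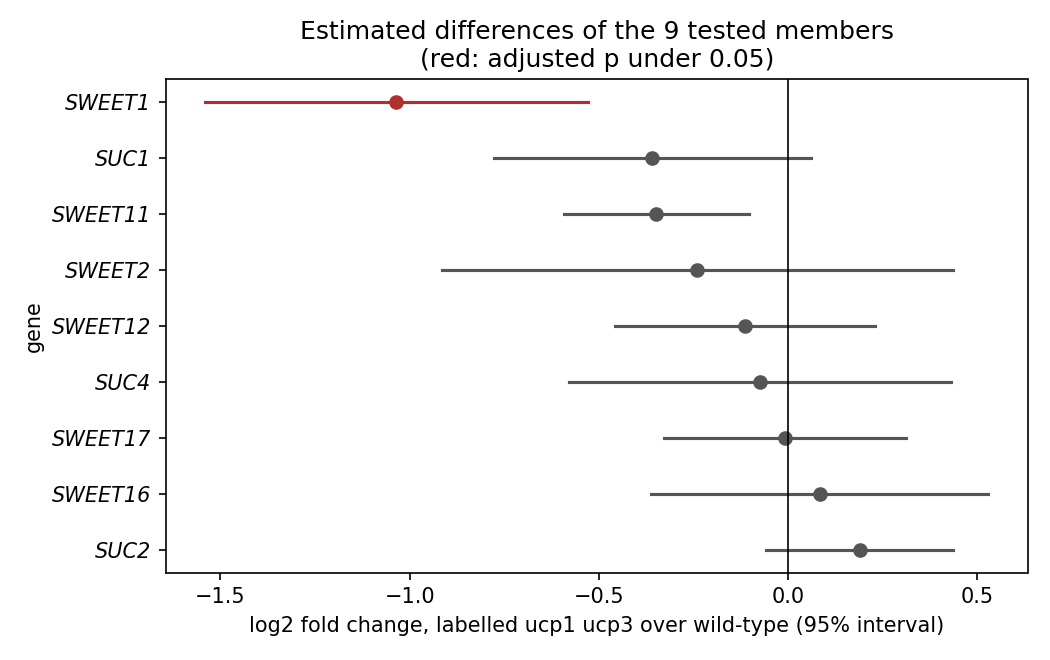
Log2 fold change (x axis, labelled ucp1 ucp3 over wild-type) of each tested member (y axis), with its 95% interval as a line. SWEET1, in red, is the member with an adjusted p under 0.05; the interval of SWEET11 ends at -0.10 and that of SUC2 starts at -0.06.

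Set against SWEET11 within a library, SUC2 had more reads in each labelled mutant than in any wild-type library, whereas its ratio to SWEET12 overlapped between the groups. For each read of SWEET11 there were 0.522, 0.586 and 0.549 reads of SUC2 in wild-type and 0.768, 0.730 and 0.955 in the labelled mutants. The groups did not overlap, with means of 0.552 ± 0.0324 and 0.818 ± 0.120 (SD, n = 3). The log2 difference was 0.56, at the smallest p that 3 against 3 allows (exact two-sided permutation test, p = 0.1; adjusted over 6 ratios, 0.2). For each read of SWEET12 there were 1.85, 2.35 and 2.07 reads of SUC2 in wild-type and 2.13, 2.35 and 4.36 in the labelled mutants (exact p = 0.2). The ratio of SUC2 to SUC1 was 0.954, 1.04 and 0.740 in wild-type and 1.36, 1.08 and 1.62 in the labelled mutants, again without overlap, but by a narrow margin between wild-type replicate 2 and mutant replicate 2 (exact p = 0.1). The ratio of SWEET17 to SWEET16 overlapped (exact p = 0.8). These pairs were chosen after their values were seen, and the adjustment over 6 ratios does not cover that choice.

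**Figure D4:**
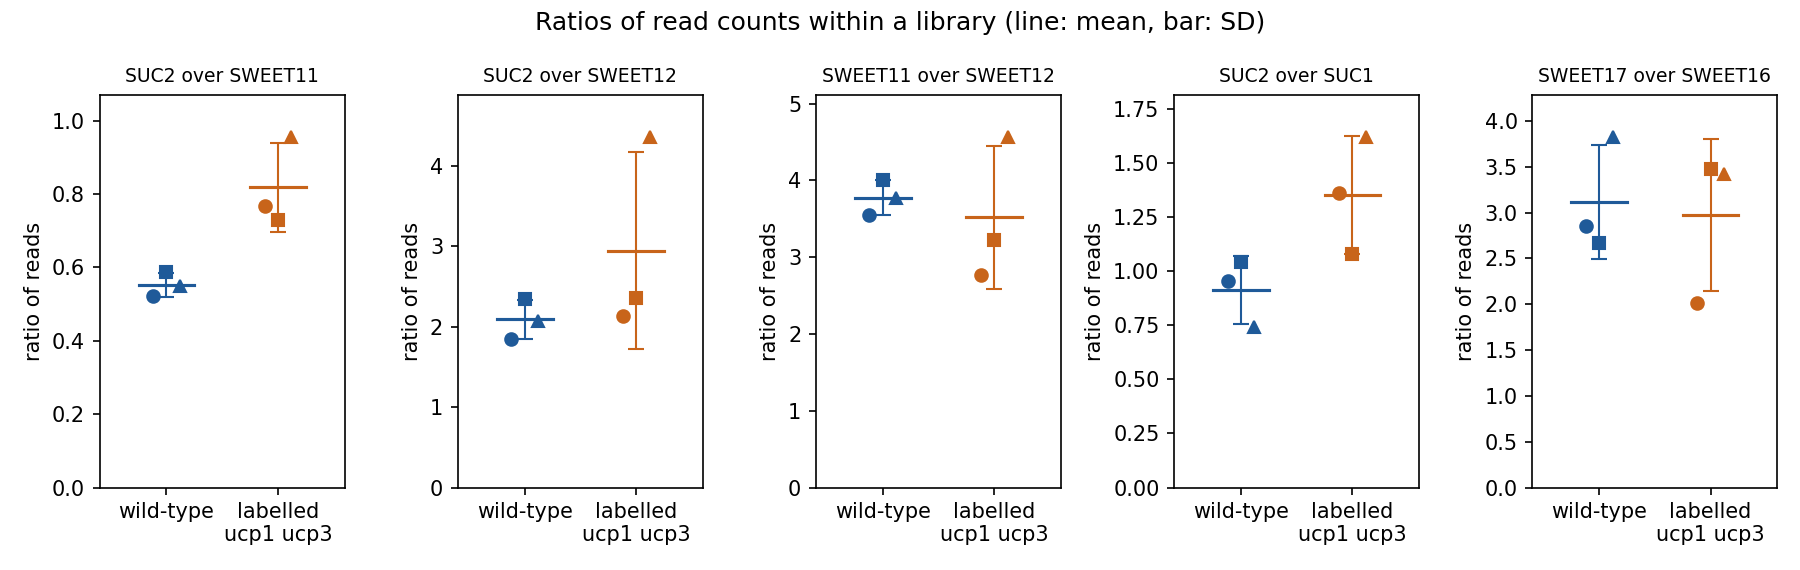
Ratios of read counts of 2 genes within each library (y axes, linear from 0) for 5 pairs of members, by group (x axes). Points are libraries, lines are means and bars are SD (n = 3); the groups are apart for SUC2 over SWEET11 and for SUC2 over SUC1.

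Levels of different genes were compared in the TPM values the authors deposited, which are per transcript length. In wild-type, SWEET11 stood first at 209 ± 17.8 TPM (SD, n = 3), above every other member in all 3 libraries. SUC1 (84.1 ± 22.3 TPM) and SUC2 (73.7 ± 6.33 TPM) followed with overlapping ranges, and then SWEET12 (57.5 ± 6.38 TPM) and SWEET17 (45.7 ± 4.73 TPM), whose ranges stood just apart. SWEET1 (24.6 ± 5.41 TPM) overlapped with SWEET16 (15.8 ± 3.70 TPM), and SWEET2 (8.23 ± 3.71 TPM) with SUC4 (4.30 ± 0.695 TPM). SWEET4 came last, listed at 0 in 2 of the 3 libraries and at 0.880 TPM in the other.

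In the labelled mutants SWEET11 again stood first, at 153 ± 16.8 TPM, and SUC2 (79.7 ± 7.09 TPM) exchanged places with SUC1 (61.1 ± 12.6 TPM), although their ranges overlapped. SWEET1 (9.60 ± 4.59 TPM) stood after SWEET16 (15.3 ± 1.79 TPM) there, and the ranges of these 2 genes did not overlap. As a share of the TPM summed over the 10 members, SWEET11 made up 39.2% to 41.3% in wild-type and 36.4% to 36.8% in the labelled mutants. The share of SUC2 was 13.7% to 14.8% in wild-type and 17.0% to 22.3% in the labelled mutants, and that of SWEET1 was 3.93% to 5.15% and 1.11% to 3.02%. Shares of one sum are not independent of each other. The sum itself was 492 to 585 TPM in wild-type and 388 to 474 TPM in the labelled mutants; in CPM, which is scaled between libraries, the summed levels overlapped, at 565 to 714 and 515 to 578 CPM.

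Few other members of the 2 families were expressed. Of the 10 other SWEET genes, 5 had no read in any library, and SWEET10 alone was tested, with 7.57, 3.88 and 12.1 CPM in the wild-type libraries, against 1.83, 7.12 and 2.71 CPM in those labelled ucp1 ucp3. The groups overlapped, and the log2 fold change of -0.71 had a 95% interval from -1.89 to 0.48 (edgeR adjusted p = 0.561). Of the 6 other SUC genes, 4 had no read in any library and SUC3, a sucrose transporter of the plasma membrane, alone was tested. It had 26.6, 27.1 and 30.0 CPM in the wild-type libraries, against 30.4, 30.2 and 32.5 CPM in those labelled ucp1 ucp3, a log2 fold change of 0.14 (95% interval -0.15 to 0.42; edgeR adjusted p = 0.665). By a narrow margin its groups did not overlap, as on the higher side for 11.2% of all tested genes.

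The listed genes of sucrose synthesis, the invertase genes and the listed carriers of the vacuole membrane and the plastid envelope held a single call, a rise. Sucrose synthase genes were not part of these lists. VI2 (AT1G12240), which encodes an acid invertase that splits sucrose in the vacuole, had 105, 91.1 and 73.4 CPM in the wild-type libraries, against 173, 171 and 241 CPM in those labelled ucp1 ucp3. All 3 mutant libraries stood above the highest wild-type library, at a log2 fold change of 1.09 ± 0.16 (SE; 95% interval 0.75 to 1.43; edgeR adjusted p = 0.00631). The call held in all 13 alternatives, with estimates from 0.94 to 1.23. The other vacuolar invertase gene, VI1, named after its values were seen, had 87.2, 122 and 79.3 CPM in the wild-type libraries, against 135, 110 and 108 CPM in those labelled ucp1 ucp3, so the groups overlapped (edgeR adjusted p = 0.365). The ratio of VI2 to VI1 reads was 0.746 to 1.204 in wild-type and 1.28 to 2.23 in the labelled mutants. Its exact two-sided permutation test gave the smallest p that 3 against 3 allows (p = 0.1, adjusted over 6 ratios 0.2). This ratio reuses the counts of VI2 and is no separate evidence of its rise.

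Of the 7 tested invertase genes, 1 was called higher, 0 were called lower and 6 did not pass. Over all tested genes 0.781% were called higher and 0.482% lower. In edgeR 3 had an unadjusted p under 0.05, of which 2 had estimates above 0 and 1 below 0 (16.4% of all tested genes had such a p). Besides VI2 these were CINV1 (log2 fold change 0.42; edgeR adjusted p = 0.128) and CWINV6 (log2 fold change -0.69; edgeR adjusted p = 0.163). The median log2 fold change of the 7 invertase genes was 0.03. None of the 10 tested carriers of the vacuole membrane and the plastid envelope passed in edgeR, DESeq2 or limma-voom (1 had an unadjusted p under 0.05). Their median was 0.16, with 8 estimates above 0. Those with the smallest p were ESL1, a monosaccharide facilitator, at 16.7 ± 0.985 CPM in the wild-type libraries, against 23.8 ± 4.43 CPM in those labelled ucp1 ucp3 (edgeR adjusted p = 0.187), and ERD6, the founding gene of the same subfamily, at 326 ± 16.5 and 382 ± 22.7 CPM (edgeR adjusted p = 0.316; SD, n = 3 for both). For both genes every labelled mutant lay above every wild-type library, as for 11.2% of all tested genes.

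Among the 7 tested genes of sucrose synthesis, 0 passed in edgeR, DESeq2 or limma-voom and 1 had an unadjusted p under 0.05, against 16.4% of all tested genes. The median log2 fold change of the 7 was 0.11. SPP1, a sucrose-phosphate phosphatase gene, had 12.1, 12.2 and 9.06 CPM in the wild-type libraries, against 19.0, 14.9 and 17.2 CPM in those labelled ucp1 ucp3 (log2 fold change 0.59; edgeR adjusted p = 0.138). Its groups did not overlap, as on the higher side for 11.2% of all tested genes. SPS4F, a sucrose-phosphate synthase gene, had a log2 fold change of -0.29 with overlapping groups (edgeR adjusted p = 0.49).

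**Figure D5:**
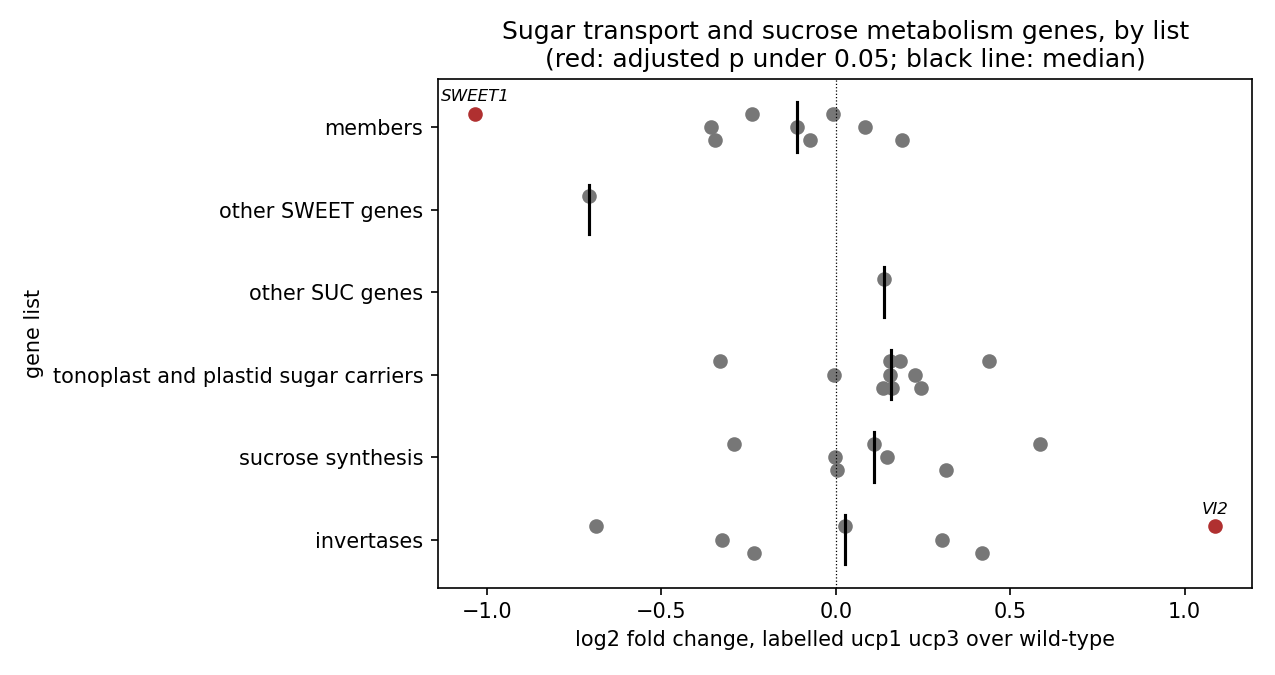
Log2 fold change (x axis, labelled ucp1 ucp3 over wild-type) of each tested gene in 6 lists of sugar transport and sucrose metabolism (y axis). Points are genes, black lines are list medians; SWEET1 and VI2, in red, have an adjusted p under 0.05.

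Tissue makeup was read from marker genes, whose part in the differences above was not tested. In edgeR, 16.4% of all 17415 tested genes had an unadjusted p under 0.05, the share against which the counts below stand. All 10 phloem markers were detected and tested, with 0 calls in edgeR and limma-voom, 1 in DESeq2 and 3 at an unadjusted p under 0.05, all 3 higher. Their summed level was 356 to 467 CPM in the wild-type libraries, against 449 to 455 CPM in those labelled ucp1 ucp3, and their median log2 fold change was 0.13. The 6 leaf mesophyll markers summed to 23512 to 25925 CPM in the wild-type libraries, against 25258 to 32136 CPM in those labelled ucp1 ucp3 (0 calls in edgeR and limma-voom, 2 in DESeq2, 2 at an unadjusted p under 0.05, both higher). The 2 at an unadjusted p under 0.05 were LHCB1.1 and LHCB1.2, which shared 31.2% and 25.1% of their 31-base stretches with other genes. RBCS1A, CA1, RCA and GLDP1 had log2 fold changes of 0.03, 0.003, 0.30 and -0.08. Root was also present: of 10 root markers, 9 were tested, with 0 calls by the 3 tools, 2 at an unadjusted p under 0.05, both higher (CASP2 and NRT2.1), and a median of 0.38. Estimates were above 0 for 8 of the 9, and below 0 for PYK10, a beta-glucosidase gene with 1444 to 2391 CPM. The root markers summed to 1738 to 2489 CPM in the wild-type libraries, against 1538 to 2033 CPM in those labelled ucp1 ucp3. Without PYK10 the sums were 66.9 to 98.1 and 86.5 to 141 CPM, and the groups overlapped both times.

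The 7 xylem markers summed to 91.3 to 128 CPM in the wild-type libraries, against 88.5 to 127 CPM in those labelled ucp1 ucp3, with 0 calls by the 3 tools and 0 at an unadjusted p under 0.05. Of 7 flower markers 2 were tested, with 0 calls by the 3 tools and 0 at an unadjusted p under 0.05, and the 7 summed to 17.0 to 17.7 and 17.4 to 21.8 CPM. SEP3 made up 11.9 to 14.2 and 9.82 to 13.7 CPM of these sums. AP1 and AP3, untested at 0 to 11 and 0 to 5 reads, had more CPM in every labelled mutant than in any wild-type library. This held for 11.2% of tested genes, and both had 2 reads in replicate 3 of the labelled mutants, under the floor of 3 reads. AG, SEP1 and SEP2, also untested, overlapped between the groups. None of these 40 marker genes was at 0 in all libraries.

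Across the 12473 genes that averaged 10 CPM or more, the level of GRF3 (AT5G38480), a 14-3-3 protein gene, followed that of SWEET11 most closely over the 6 libraries. The centred log2 values of both differed by a root mean square of 0.0171, against a spread of 0.203 for SWEET11 itself. AT5G20160 (0.0262) and AT1G53040 (0.0275) came next. For SUC2, the closest were ILP1 (0.0278), CKI1 (0.0320), a casein kinase gene, and ACLB-2 (0.0350), which encodes a subunit of ATP-citrate lyase, against a spread of 0.147 for SUC2. With 6 values per gene and this many genes, such likeness is a description only.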

How the data were processed

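Each deposited table lists, for every transcript model, an estimated count and a TPM value made by the authors. Kallisto, DESeq2 and the TAIR10 build are named, without versions, in the submitters' processing notes. Index and strand setting are not given in the sources used here. Poly(A) libraries came from a stranded kit, per the labels' protocols. Estimated counts of 35386 models were summed per locus to 27416 genes and rounded. The test was that of edgeR 4.0.16 under R 4.3.3 (default filter, TMM, robust quasi-likelihood F test, genotype as the only term), adjusted by Benjamini-Hochberg over 17415 genes. Standard errors are the estimate over the square root of F. Floors of 3 counts, 0.264 to 2.71 CPM, cover counting error only. Members, lists and tests were chosen with earlier results of these data known. Named genes are the 10 members, UCP1, UCP3, called genes of each pathway list or else the 2 with the smallest p, called genes of each marker list (given as summed levels), and the 3 genes closest to SWEET11 and SUC2. VI1, CINV1, CWINV6, SUC5, SWEET15, CASP2, NRT2.1, PYK10, the 6 leaf mesophyll markers and the flower markers AP1, AP3, AG, SEP1, SEP2 and SEP3 were named after their values were seen. Shared sequence was counted as 31-mers of RefSeq TAIR10.1 mRNAs; no coordinates are printed, since the notes name TAIR10. Replicates differed by more than sampling noise (chi-square over degrees of freedom 2.41 to 6.38). On simulated data for this comparison, 17257 genes tested, 24.0% of 1.5-fold, 73.5% of 2-fold, 95.9% of 3-fold and 100% of 4-fold changes were recovered, with 17 false calls of 159. Counts were drawn independently at the real mean levels, library sizes and dispersions, without an outlying library. The changed genes were picked at random over all levels, so recovery at the low counts of some members is not given. Alternatives were RLE size factors, library totals, no filter, a filter of 1 CPM in every library of a group, DESeq2 1.42.0, limma-voom (limma 3.58.1) on unrounded values, a replicate block, and leaving out each library.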

Additional observations from a re-analysis of the deposited data

How the results depend on the processing

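The call of SWEET1 held with RLE size factors, library totals, no filter and a filter of 1 CPM in every library of a group (4 alternatives; the last keeps 18387 genes, more than the default filter, so no stricter filter was run) and was lost in 8, always with an estimate below 0. The number of members called lower was 0 with limma-voom, with the edgeR replicate block, with DESeq2 and in each fit without 1 library. For SWEET1, limma-voom gave an adjusted p of 0.0733 and the edgeR block 0.0957. DESeq2 gave it no adjusted p and gave one to 5 members. No pairing by replicate number was seen: deviations of same-numbered libraries correlated at -0.0682, -0.0964 and -0.0111. With 3 libraries per group this does not settle whether the samples were paired. The replicate block moved the genes called lower to 45. Over all genes, 84 lower and 136 higher calls became 223 and 267 without the filter, 158 and 229 with DESeq2, 110 and 109 with library totals, and 16 to 347 and 31 to 326 when 1 library was left out. Leaving out 1 library also turned the sign of SWEET2 (-0.54 to 0.063), SWEET12 (-0.21 to 0.020), SWEET16 (-0.046 to 0.24), SWEET17 (-0.17 to 0.14) and SUC4 (-0.15 to 0.038), none called. The call of VI2 held throughout. The order of all 10 members by mean level was the same by reads per kilobase in wild-type and, checked after seeing the data, in the labelled mutants. The cause of lost calls was not tested. SWEET4, with 0 to 7 reads, had too few for the main test. The fit without the filter tested all 10 members and did not call it.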

Other observations

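Some relatives of the members stood near the counting limit and were not tested. SUC5, the tandem neighbour of SUC1, had 4, 6 and 4 reads in wild-type and 2, 7 and 0 in the labelled mutants. In CPM this was 0.819, 1.66 and 0.930 in wild-type and 0.457, 0.615 and 0 in the labelled mutants, where the floor of replicate 3 was 2.71 CPM, so that library cannot show a lower level. SWEET15, linked to leaf senescence, had at most 4 reads in a library.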
